A study of Mus musculus with 18 samples.

Results

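Astrocytes act on synapses through proteins that they secrete or carry on their surface, and 33 mouse genes for such proteins were followed here among the 22078 genes of both count tables. The rule takes genes by what they are known for and uses no measured value, but earlier results of these data were known when the genes were chosen. They are secreted and surface factors that form, refine or engulf synapses. They were found by matching Entrez identifiers to mouse symbols, and all 33 matched. They fall into 7 roles: matricellular proteins, glypicans with a chordin-like factor, engulfment receptors and their bridging ligands, adhesion proteins, lecticans of the perineuronal matrix, guidance cues and growth-factor-like proteins.

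Thrombospondins and Sparcl1 (hevin) are secreted matricellular proteins that promote the formation of structural synapses, and Sparc opposes hevin. Glypicans 4 and 6 and Chrdl1 act on the AMPA receptors of the neuron, so that synapses become active or mature. Astrocytes also remove synapses, with Megf10 and Mertk as phagocytic receptors. Gas6 bridges Mertk and Axl, and Pros1 bridges Mertk, to exposed phosphatidylserine. Many of these factors were first described in cultured astrocytes or in medium conditioned by them.

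The cells were mouse cortical astrocytes grown with 10% fetal bovine serum and transfected with a plasmid by HilyMax, a lipid reagent. The plasmids encoded a designer receptor that responds to deschloroclozapine (DCZ) or, in the controls, a fluorescent protein. There were 6 groups: 4 were collected at 90 min and 2 at 3 days, with 3 libraries each and 18 libraries in all. At 90 min, on day 7 after transfection, the groups carried hM3Dq (Gq-coupled), rM3Ds (Gs-coupled), hM4Di (Gi-coupled) or EGFP, and all had received 8 µM DCZ for 90 min. The 3-day groups carried hM3Dq or mCherry, were given the same DCZ pulse, and were then kept in ligand-free medium until RNA was collected 3 days later. Controls therefore received DCZ too, and no group carried a receptor without it. The labels number the 3 libraries of a group and do not say that they came from separate cultures, so a p-value here reflects only how these libraries varied, and that variation may be technical. A plasmid reaches only some of the cells, so each value averages transfected and untransfected cells, and the labels used here do not give the share transfected.

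Libraries held 16.1 to 25.2 M counts (M, counts in units of 1e6) at 90 min and 16.6 to 19.7 M at 3 days. On the first principal component of the 90-min table, 3 libraries were far from the remaining 9. It held 52.5% of the variance of log2 CPM (counts scaled by library size), and the 3 were EGFP replicate 1 and rM3Ds replicates 2 and 3, at 65.5, 53.3 and 54.9. Among the 9, hM4Di replicate 1 lay between, at 8.6, while the rest lay at -25.5 to -17.5. Fits without the 3 libraries below keep hM4Di replicate 1. At 3 days mCherry replicate 3 stood apart on a component of 56.7%, with a summed proliferation list (below) of 61.5 CPM against 23.6 and 45.3 CPM in the other mCherry libraries. Of 12 astrocyte markers, 11 had a median of at least 1 CPM in every group, with Gjb6 below that, and the list summed to 689 to 1139 CPM at 90 min. Fibroblast and mural markers summed to 1968 to 3547 CPM at 90 min, with 8 or 9 of 10 at 1 CPM or more, while 1 of 8 microglial, 2 of 6 endothelial and 4 of 9 oligodendrocyte-lineage markers had such a median in each group. Of 9 neuronal markers 3 did at 90 min and 1 at 3 days, where Rbfox3, Gad1 and Slc17a6 were at 0 in both groups. A list of 8 proliferation genes summed to 341 CPM in EGFP replicate 1, 198 and 212 CPM in rM3Ds replicates 2 and 3, and 33.3 to 112 CPM in the other 9 libraries. Because cells are measured in bulk, fewer cells of a type and less RNA per cell cannot be told apart. The part of other cell types and of proliferation in the results below was not tested.

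At the level of transcripts per length, Sparc had the highest median of the 33. Its median over the 90-min libraries was 614 CPM per kilobase of exon, ahead of Il33 at 243, the endocytic receptor Lrp1 at 216, Thbs1 at 152 and the receptor Axl at 119. The order of the top 3 was the same at 3 days, with Sparc at 574, Il33 at 449 and Lrp1 at 188 CPM per kilobase. Il33, Lrp1 and Thbs1 ranged over 484 to 3011, 2105 to 4508 and 439.6 to 2807 CPM between the 90-min libraries, so the order of close neighbours is not beyond their spread. The first place of Sparc did not hold in every library either. Il33 and Sparc, with exons of 2606 and 2721 bases, stood at 3011 and 1986 CPM in EGFP replicate 1. In rM3Ds replicates 2 and 3, Il33 stood at 1987 and 1857 CPM and Sparc at 1699.8 and 1616 CPM. At the other end stood 4 members that did not pass the filter on low counts at 90 min. Thbs4, a thrombospondin, had 0 counts in all 12 libraries at 90 min, under a floor of 3 counts that was worth 0.119 to 0.187 CPM. The glypican Gpc5, the postsynaptic adhesion protein Nlgn1 and the heparin-binding factor Mdk ranged over 0 to 0.396, 0 to 0.946 and 0 to 0.277 CPM. At 3 days Ncan too was below the filter, which left 28 of 33 tested against 29 at 90 min.

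**Figure D1:**
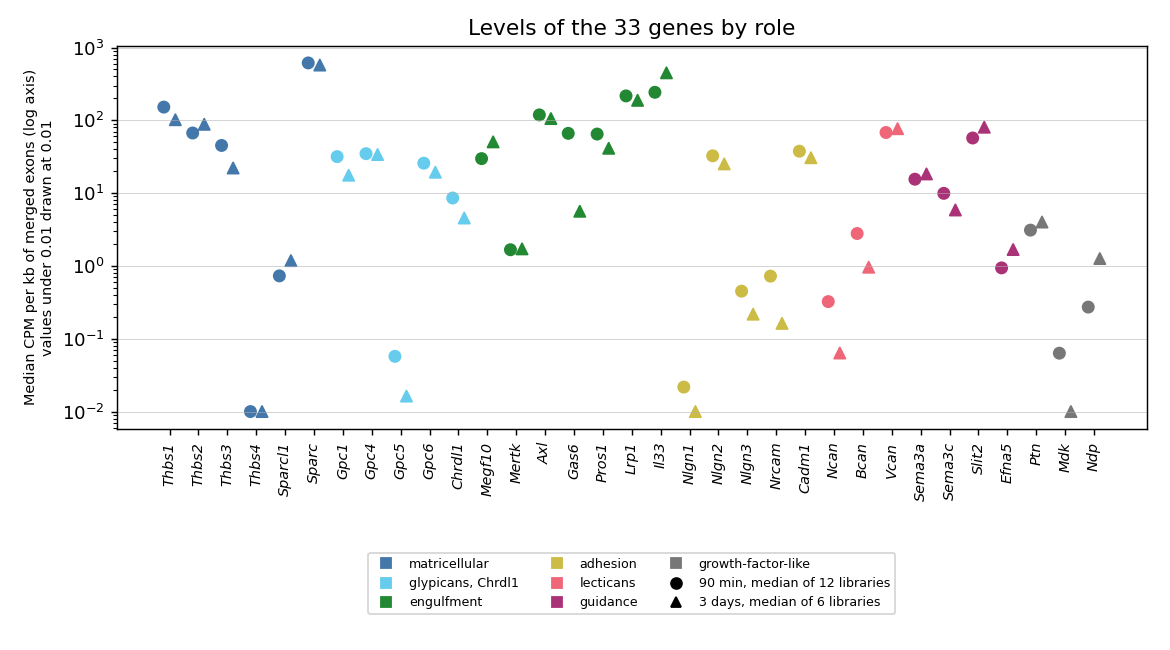
Level of each of the 33 members as CPM per kilobase of merged exon, on a log axis, with the genes grouped by role and a circle at the median of the 90-min libraries and a triangle at the median of the 3-day libraries. Values under 0.01 are drawn at 0.01. Sparc is the highest and Thbs4, Gpc5, Nlgn1 and Mdk lie at or near 0.

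No member changed beyond the adjusted threshold of 0.05 in any of the 8 comparisons, by edgeR's quasi-likelihood test with Benjamini-Hochberg adjustment over all genes tested. In hM3Dq against EGFP at 90 min, where 0.788% of 13584 genes passed (107 genes, or 66 with a replicate block), 0 of 29 members did, and 1 member had an unadjusted p under 0.05 against 7.94% of all genes. For rM3Ds against EGFP 0.0147% of all genes and 0 members passed, with 2 members under an unadjusted 0.05 against 4.23% of genes. For hM4Di against EGFP 0.0% of genes passed by edgeR, DESeq2 called 31 genes, and 3 members were under an unadjusted 0.05 against 5.48% of genes. Between receptors, 0.67% of genes passed in hM3Dq against rM3Ds, 0.802% in hM3Dq against hM4Di and 0.0147% in rM3Ds against hM4Di, with 0 members each. The members under an unadjusted 0.05 in these were 6, 3 and 6 of 29, against 14.2%, 11.4% and 9.97% of genes. At 3 days 0.0% of 12807 genes and 0 of 28 members passed by edgeR, DESeq2 called 140 genes, and 6 members were under an unadjusted 0.05 against 12% of genes. DESeq2 called 0 members in 7 comparisons and 1 in the hM3Dq against rM3Ds comparison, Ncan, as given below.

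Members with an unadjusted p under 0.05 were Gpc1 for hM3Dq, Gpc4 and Ncan for rM3Ds, and Slit2, Thbs1 and Sema3a for hM4Di, each against EGFP. Between receptors they were Ncan, Gpc4, Bcan, Ptn and Nrcam with lower and Gpc1 with higher values in hM3Dq than rM3Ds, and Thbs2, Slit2 and Cadm1 with higher values in hM3Dq than hM4Di. In rM3Ds against hM4Di they were Gpc4, Ncan, Pros1, Nrcam, Thbs1 and Ptn, all with higher values in rM3Ds. The size of what could have been missed differs between members. The 95% interval of the fold change lay within 2-fold either way for 17 of 29 members in hM3Dq against EGFP, against 78.4% of all genes. The same held for 15 and 16 of 29 in rM3Ds and hM4Di against EGFP, with 79.5% and 80.0% of all genes. At 3 days it held for 25 of 28 members and 89.2% of genes. The 12 members with wide intervals in hM3Dq against EGFP include Thbs1, Il33, Ncan, Ptn, Chrdl1 and Vcan, whose EGFP libraries differed among themselves.

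The counts of members whose groups of 3 libraries did not overlap stood beside these backgrounds. In hM3Dq against EGFP 1 member lay higher and 0 lower (8.27% and 6.5% of 13563 genes), in rM3Ds against EGFP 1 and 1 (3.91% and 3.61%) and in hM4Di against EGFP 0 and 3 (4.05% and 4.46%). In hM3Dq against rM3Ds 4 lay higher and 3 lower (11.4% and 10.4%; Vcan, Gpc1, Slit2 and Thbs2 higher, Bcan, Gas6 and Sema3c lower), in hM3Dq against hM4Di 4 and 0 (11.4% and 8.81%; Vcan, Pros1, Thbs1 and Thbs2) and in rM3Ds against hM4Di 2 and 0 (5.85% and 5.19%; Pros1 and Sema3a). The median log2 fold change of the 29 members was -0.02, -0.01 and -0.14 for hM3Dq, rM3Ds and hM4Di against EGFP, with the median of all genes between -0.016 and -0.0034. It was -0.18, 0.07 and 0.33 in the 3 comparisons between receptors, in the order above, against 0.0081, -0.015 and -0.0055 over all genes. The comparisons against EGFP share their EGFP libraries, and those between receptors share receptor libraries.

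**Figure D2:**
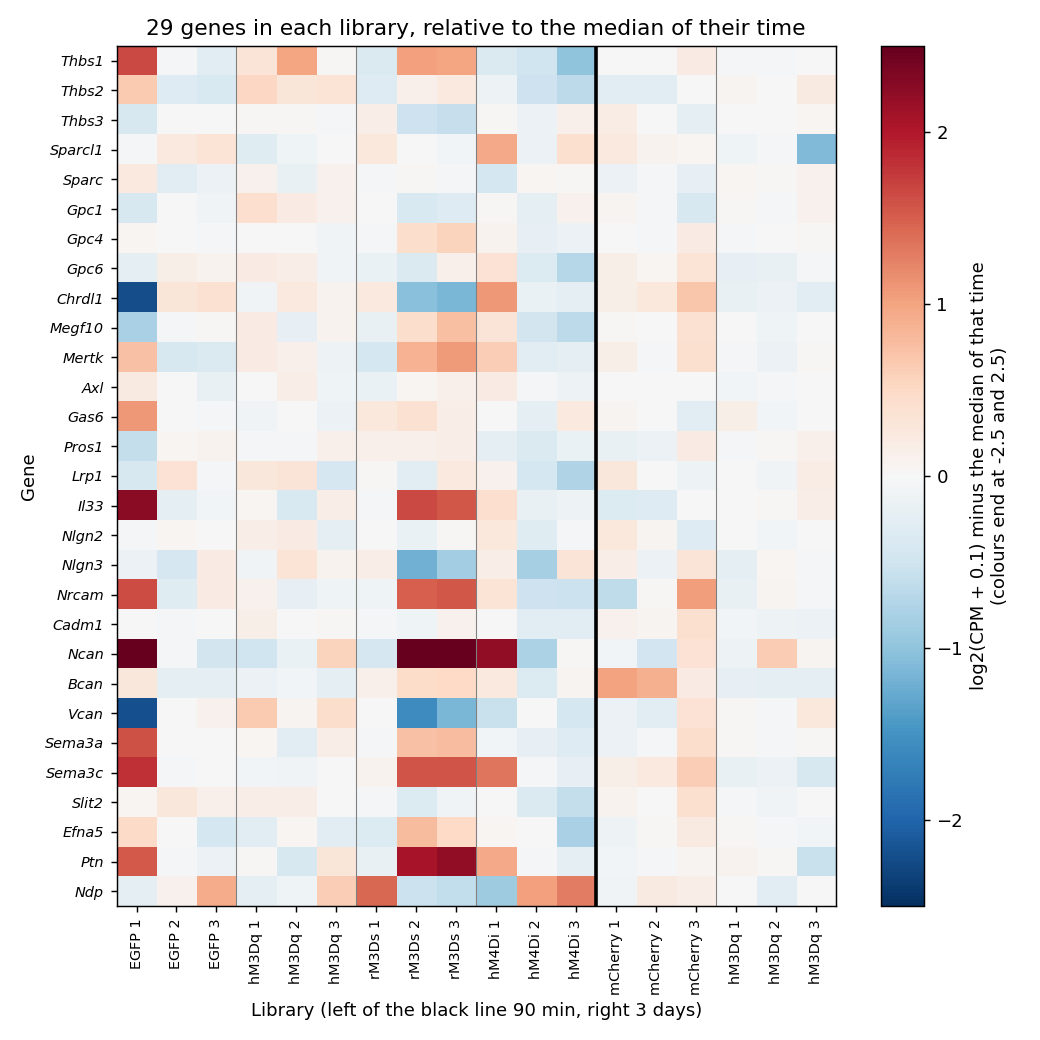
Level of the 29 members tested at 90 min in each of the 18 libraries, as log2(CPM + 0.1) minus the median over the libraries of the same time, with the libraries in columns by group and the genes in rows by role. Ncan, Il33, Sema3c, Ptn, Thbs1 and Nrcam are high in EGFP replicate 1 and rM3Ds replicates 2 and 3, and Vcan and Chrdl1 are low there.

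The members that varied most did so inside groups. EGFP replicate 1 exceeded EGFP replicates 2 and 3, and rM3Ds replicates 2 and 3 exceeded rM3Ds replicate 1, by more than 2-fold for 7 of 29 members (24.1%), against 5.1% of the 13563 genes compared. The 7 were Thbs1, Mertk, Il33, Nrcam, Ncan, Sema3c and Ptn. Chrdl1 and Vcan were more than 2-fold lower in the same libraries (6.9% of members, 2.18% of genes). Sums of the marker lists of other cells also differed in these libraries, but not all in the same direction, and they rested on few genes. The neuronal list summed to 212 CPM in EGFP replicate 1 and to 201 and 215 CPM in rM3Ds replicates 2 and 3, against 99.4 to 191 CPM in the other 9 libraries. The endothelial list summed to 16.2, 8.65 and 8.78 CPM in the same 3, against 22.6 to 41.5 CPM. In the neuronal list Map2 ranged over 94.7 to 172 CPM at 90 min, Stmn2 over 1.88 to 50.1 and Tubb3 over 0.558 to 2.55. Rbfox3, Syt1, Snap25, Gad1, Slc17a7 and Slc17a6 stayed under 1 CPM in every 90-min library. In the endothelial list Pecam1, Cdh5, Cldn5 and Kdr did too, and Tek and Flt1 made up most of the sum. In hM3Dq against EGFP, 8 members had a log2 fold change beyond 0.5 either way (a size chosen after the values were seen), and without EGFP replicate 1 all 8 moved by more than 1.5 times, with Il33, Ncan and Ptn turning in direction. These 8 were Gas6, Il33, Nrcam, Ncan, Vcan, Sema3a, Sema3c and Ptn. These libraries were set apart by the data, so this is a description with no test.

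**Figure D3:**
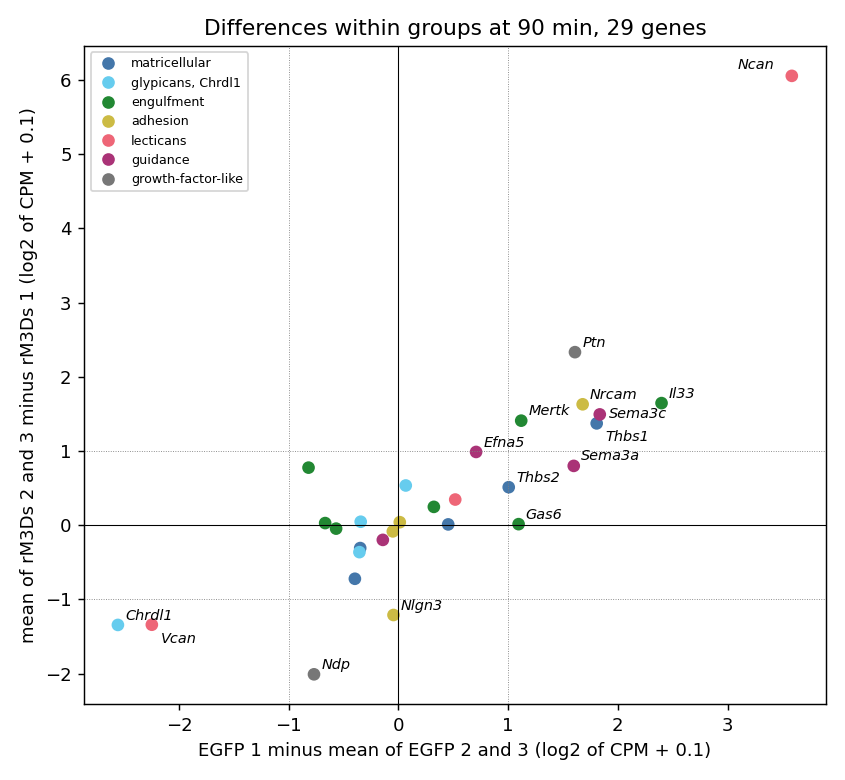
Difference within EGFP (replicate 1 minus replicates 2 and 3) on the horizontal axis against the difference within rM3Ds (replicates 2 and 3 minus replicate 1) on the vertical axis, both as log2(CPM + 0.1), one point per member tested. The 7 members named above lie beyond 1 on both axes, and Vcan and Chrdl1 lie below -1 on both.

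Promoter sequences were read for 24 of the 33 members from the RefSeq table of GRCm38.p6, as the 250 bases before the start of transcription. Those of 4 genes are printed because they lie upstream of members that the results turn on: Thbs2 (chosen after its values were seen), Bcan and Sema3c with the smallest p at 3 days, and Ncan with the widest range. Capitals mark matches on either strand to the GC box GGGCGG and to the TATA sequence TATAAA. Thbs2 (chr17:14694263-14694512, minus strand), Bcan (chr3:88000357-88000606, minus strand), Sema3c (chr5:17574566-17574815, plus strand) and Ncan (chr8:70120845-70121094, minus strand) read 5′ to 3′ towards the gene.
Thbs2: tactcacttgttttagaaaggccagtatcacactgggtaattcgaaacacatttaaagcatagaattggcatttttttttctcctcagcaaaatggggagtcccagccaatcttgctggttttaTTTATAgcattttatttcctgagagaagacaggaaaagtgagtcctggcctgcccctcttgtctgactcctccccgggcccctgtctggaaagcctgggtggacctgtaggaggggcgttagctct
Bcan: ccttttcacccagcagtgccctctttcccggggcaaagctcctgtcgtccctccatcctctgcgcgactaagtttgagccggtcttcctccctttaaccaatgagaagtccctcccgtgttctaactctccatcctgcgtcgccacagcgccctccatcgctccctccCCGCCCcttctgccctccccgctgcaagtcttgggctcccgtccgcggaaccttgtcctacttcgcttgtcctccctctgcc
Sema3c: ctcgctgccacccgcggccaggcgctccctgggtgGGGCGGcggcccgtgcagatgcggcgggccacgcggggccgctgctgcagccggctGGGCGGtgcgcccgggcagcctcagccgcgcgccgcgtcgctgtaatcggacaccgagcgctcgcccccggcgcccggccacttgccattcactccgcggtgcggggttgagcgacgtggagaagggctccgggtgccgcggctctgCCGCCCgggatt
Ncan: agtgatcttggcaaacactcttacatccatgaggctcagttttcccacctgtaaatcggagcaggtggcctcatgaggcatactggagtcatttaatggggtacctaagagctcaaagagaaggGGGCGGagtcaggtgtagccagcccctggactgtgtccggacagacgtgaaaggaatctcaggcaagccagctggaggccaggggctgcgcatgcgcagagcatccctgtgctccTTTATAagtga

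The GC box was found in 17 of the 26 member promoters (65.4%), against 32.7% of the 32851 promoters of the same length in the table, and TATAAA in 7 (26.9%) against 12.4%. Il33 and Nlgn1 have 2 promoters each, so the matches belong to 17 and 6 of the 24 genes. Member promoters had a median GC content of 59.4% (39.6 to 78.4%), against 52.4% over all promoters, and its part in the GC box count was not tested. The AP-1 sequence TGANTCA, the cyclic AMP response element TGACGTCA and the CArG box were in 0 of the 26, against 6.75%, 1.55% and 1.47% of all promoters. Letters absent from a 250-base window say nothing of factor binding elsewhere. No promoter entry was matched for Thbs1, Gpc1, Gpc6, Chrdl1, Megf10, Nlgn3, Cadm1, Sparcl1 and Mdk.

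Among the matricellular proteins, Thbs1 had the highest level per length of the 4 thrombospondins, followed by Thbs2. Thbs1 (Entrez 21825) stood at 2807, 871 and 738 CPM in EGFP replicates 1 to 3. In the receptor groups it stood at 1112, 1751 and 907 CPM with hM3Dq, at 689, 1818 and 1751 CPM with rM3Ds and at 689, 628 and 439.6 CPM with hM4Di. EGFP replicate 1 was the highest library by more than 2-fold over the other 2 EGFP libraries, and all 3 hM4Di libraries lay below the lowest EGFP library. Between hM4Di and EGFP the log2 fold change was -1.33 ± 0.53 (SE; edgeR, adjusted p = 0.833), and between hM3Dq and EGFP it was -0.23 ± 0.52 (adjusted p = 0.975). Without EGFP replicate 1 and rM3Ds replicates 2 and 3, the hM3Dq value turned to 0.64 ± 0.28 (adjusted p = 0.739), and the hM4Di value was -0.47. Without EGFP replicate 1 alone they were 0.64 and -0.45.

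Thbs2 (Entrez 21826), named after its values were seen, stood at 619, 313 and 304 CPM with EGFP and at 566, 486 and 499.5 CPM with hM3Dq. Libraries with hM4Di stood at 359, 276 and 249 CPM and those with rM3Ds at 314, 431 and 466 CPM. The hM3Dq libraries lay above all hM4Di and all rM3Ds libraries, and 2 of the 3 EGFP libraries lay below all hM3Dq libraries. The log2 fold change of hM3Dq was 0.33 ± 0.26 against EGFP (SE; adjusted p = 0.874) and 0.81 ± 0.27 against hM4Di (adjusted p = 0.245), by edgeR in both. Without the 3 libraries that stood apart, the value against EGFP was 0.74 ± 0.16 (adjusted p = 0.0991), and against hM4Di 0.81 ± 0.14 (adjusted p = 0.0225), where 2.16% of all genes passed. With a term for those libraries in the fit, Thbs2 and Thbs1 both passed against hM4Di, at 0.81 ± 0.15 and 1.10 ± 0.23 (adjusted p = 0.0114 and 0.0291; 2.82% of genes passed), and Thbs2 passed against rM3Ds at 0.88 (adjusted p = 0.0435; 0.839% of genes).

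Sparc (Entrez 20692) stood at 1986, 1399 and 1503 CPM with EGFP, 1789.8, 1469.8 and 1790.5 CPM with hM3Dq, 1644, 1699.8 and 1616 CPM with rM3Ds and 1234, 1719.8 and 1698 CPM with hM4Di. All 4 groups overlapped, and the log2 fold change of hM3Dq against EGFP was 0.05 ± 0.17 (SE; edgeR, adjusted p = 0.984). Its opponent Sparcl1 was low, at 1.61 to 3.96 CPM, and Thbs3 stood at 96.1 to 162 CPM. Against EGFP the hM3Dq log2 fold changes were -0.32 ± 0.30 for Sparcl1 and 0.12 ± 0.18 for Thbs3 (adjusted p = 0.913 and 0.963).

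Gpc1, a glypican of the cell surface, had the smallest p of all members for hM3Dq against EGFP. Gpc1 (Entrez 14733) stood at 178, 154 and 142 CPM with hM3Dq and 100.2, 131 and 125 CPM with EGFP. The lowest hM3Dq library was above the highest EGFP library, 1 of 29 members in that position against 8.27% of all genes higher without overlap. Its log2 fold change was 0.41 ± 0.14 (SE; 95% interval 0.09 to 0.73; edgeR, adjusted p = 0.444). Without EGFP replicate 1, the lowest EGFP library, that value was 0.30 ± 0.15 (adjusted p = 0.915). Against rM3Ds, at 134, 102 and 106 CPM, the log2 fold change with all libraries was 0.47 ± 0.14 (adjusted p = 0.196), and hM4Di libraries stood at 135, 114 and 143 CPM.

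Gpc4, an astrocyte glypican that recruits AMPA receptors to silent synapses, had the smallest p for rM3Ds against EGFP. Gpc4 (Entrez 14735) stood at 90.1, 125 and 136 CPM with rM3Ds, 95.3, 92.5 and 89.4 CPM with EGFP, 92.6, 92.3 and 87.2 CPM with hM3Dq and 97.7, 80.3 and 83.2 CPM with hM4Di. Only rM3Ds replicates 2 and 3 stood above the range of the other libraries, and replicate 1 lay within it. For rM3Ds against EGFP the log2 fold change was 0.34 ± 0.14 (SE; edgeR, adjusted p = 1.00). It turned to -0.020 without the 3 libraries that stood apart, where rM3Ds has 1 library left. Without rM3Ds replicate 1 instead, Gpc4 passed against hM4Di at 0.58 (adjusted p = 0.0176; 2.83% of genes) and was 1 of 3 members, with Ncan and Ptn, that passed in hM3Dq against rM3Ds, where 4.27% of genes did. Gpc6 ranged over 57.3 to 122 CPM with groups that overlapped.

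Chrdl1, a secreted factor that limits plasticity by favouring mature AMPA receptors, varied within groups. Chrdl1 (Entrez 83453) stood at 12.4, 71.2 and 75.7 CPM with EGFP, 54.3, 68.5 and 61.6 CPM with hM3Dq, 68.8, 28.1 and 26.1 CPM with rM3Ds and 122, 51.4 and 49.1 CPM with hM4Di. EGFP replicate 1 was the lowest library and hM4Di replicate 1 the highest, so the spread within groups was wide. The hM3Dq log2 fold change against EGFP was 0.21 ± 0.61 (SE; edgeR, adjusted p = 0.983).

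Of the engulfment receptors and ligands, 0 passed the test against a control with hM3Dq, where 0.788% of genes passed at 90 min and 0.0% at 3 days. Without mCherry replicate 3, Il33 and Pros1 passed at 3 days at 0.39 and 0.22 (adjusted p = 0.00203 and 0.0267; 9.72% of genes). Gas6 (Entrez 14456), the bridging ligand, stood at 359, 169.9 and 166 CPM with EGFP and 159, 168 and 151 CPM with hM3Dq, and EGFP replicate 1 was the highest of the 12 libraries. With rM3Ds it stood at 203, 221 and 190.4 CPM and with hM4Di at 167, 144 and 199 CPM. The log2 fold change of hM3Dq against EGFP was -0.54 ± 0.26 (SE; edgeR, adjusted p = 0.649), and -0.078 without EGFP replicate 1. Pros1, the second bridging ligand, lay higher in all rM3Ds libraries (232, 233 and 241 CPM) than in all EGFP libraries (141, 222 and 227 CPM), at a log2 fold change of 0.26 ± 0.15 (adjusted p = 1.00).

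Lrp1 (Entrez 16971), a large endocytic receptor, had the highest mean CPM in this role. It stood at 2663, 4508 and 3458 CPM with EGFP, 4290.1, 4391 and 2622 CPM with hM3Dq, 3599.8, 2932 and 4151 CPM with rM3Ds and 3793, 2588 and 2105 CPM with hM4Di. These groups overlapped, and the log2 fold change of hM3Dq against EGFP was 0.09 ± 0.28 (SE; edgeR, adjusted p = 0.984). Megf10 ranged over 127 to 375 CPM, Mertk over 5.25 to 15.1 CPM and Axl over 446 to 594 CPM. Their hM3Dq log2 fold changes against EGFP were 0.26 ± 0.31, -0.02 ± 0.42 and 0.01 ± 0.14, with adjusted p = 0.955, 0.999 and 0.994.

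Il33, a cytokine by which astrocytes lead microglia to take up synapses, was also named after its values were seen. Il33 (Entrez 77125) stood at 3011, 541 and 603 CPM with EGFP, 651, 484 and 709 CPM with hM3Dq, 614, 1987 and 1857 CPM with rM3Ds and 850.5, 553 and 579.8 CPM with hM4Di. EGFP replicate 1 and rM3Ds replicates 2 and 3 stood above all other 90-min libraries. For hM3Dq against EGFP the log2 fold change was -1.17 ± 0.63 (SE; edgeR, adjusted p = 0.722) and turned to 0.093 without those 3 libraries.

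Of the adhesion proteins Cadm1 had the highest mean. Cadm1 (Entrez 54725), which joins cells through its immunoglobulin domains, stood at 217, 212 and 219 CPM with EGFP, 241, 216 and 220.1 CPM with hM3Dq, 211, 201 and 233 CPM with rM3Ds and 217, 179.8 and 177 CPM with hM4Di. The hM3Dq and EGFP libraries overlapped, at a log2 fold change of 0.06 ± 0.10 (SE; edgeR, adjusted p = 0.963). Nlgn2, a neuroligin of inhibitory synapses, ranged over 151 to 223 CPM, Nlgn3 over 1.61 to 4.90 CPM and Nrcam over 3.22 to 14.7 CPM, where the highest 3 libraries were again those that stood apart. The hM3Dq log2 fold changes against EGFP were 0.05 ± 0.15 for Nlgn2, 0.23 ± 0.39 for Nlgn3 and -0.83 ± 0.54 for Nrcam, which was -0.035 without EGFP replicate 1.

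Lecticans are the chondroitin sulfate proteoglycans of the matrix around neurons. Ncan (Entrez 13004) had the widest range of all members, at 1.71, 113 and 128 CPM with rM3Ds, 24.6, 2.29 and 1.67 CPM with EGFP, 1.61, 2.06 and 3.46 CPM with hM3Dq and 11.2, 1.30 and 2.37 CPM with hM4Di. Values above 10 CPM occurred in rM3Ds replicates 2 and 3, EGFP replicate 1 and hM4Di replicate 1. Between hM3Dq and rM3Ds the log2 fold change was -5.07 ± 1.52 by edgeR (SE; adjusted p = 0.19) and -5.10 by DESeq2 (adjusted p = 0.00959; 2.34% of 19997 genes passed there). It was 0.48 when the 3 libraries that stood apart were left out, where rM3Ds has 1 library left and borrows its spread from the other groups.

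Vcan (Entrez 13003), the highest lectican, stood at 1427, 959 and 1235 CPM with hM3Dq and 200.1, 920.2 and 982 CPM with EGFP. Libraries with rM3Ds stood at 904, 307 and 416 CPM and those with hM4Di at 622, 920.4 and 672 CPM. EGFP replicate 1 and rM3Ds replicates 2 and 3 were the 3 lowest libraries. All hM3Dq libraries lay above all rM3Ds and all hM4Di libraries, and 2 of 3 lay above all EGFP libraries while replicate 2 lay below EGFP replicate 3. Its log2 fold change was 0.78 ± 0.53 against EGFP (SE; edgeR, adjusted p = 0.815), and 0.34 without EGFP replicate 1. Bcan, at 6.84 to 12.4 CPM, is taken up with the 3-day data.

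Of the guidance cues, Slit2 had the smallest p of the members for hM4Di against EGFP. Slit2 (Entrez 20563), a ligand of Robo receptors, stood at 580.3, 449 and 378 CPM with hM4Di, 597, 693 and 626 CPM with EGFP, 644, 645 and 566 CPM with hM3Dq and 565, 451 and 539 CPM with rM3Ds. All hM4Di libraries and all rM3Ds libraries lay below all EGFP libraries. For hM4Di against EGFP the log2 fold change was -0.44 ± 0.15 (SE; 95% interval -0.78 to -0.11; edgeR, adjusted p = 0.833), and that of rM3Ds was -0.30 ± 0.15 (adjusted p = 1.00). With hM4Di, Slit2, Thbs1 and Sema3a lay lower than EGFP without overlap, 3 of 29 members against 4.46% of genes.

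Sema3c (Entrez 20348), a secreted semaphorin, stood at 193, 53.7 and 54.4 CPM with EGFP, 52.0, 51.2 and 54.7 CPM with hM3Dq, 57.9, 163 and 164 CPM with rM3Ds and 137, 52.5 and 47.4 CPM with hM4Di. Values above 100 CPM occurred in EGFP replicate 1, rM3Ds replicates 2 and 3 and hM4Di replicate 1, while the other 8 libraries spanned a narrow band. Sema3a ranged over 77.9 to 293 CPM and Efna5, an ephrin, over 2.11 to 6.60 CPM. Against EGFP the hM3Dq log2 fold changes were -0.93 ± 0.59 for Sema3c, -0.76 ± 0.39 for Sema3a and -0.22 ± 0.35 for Efna5. Without EGFP replicate 1 those of Sema3c and Sema3a were -0.039 and -0.013, and the hM4Di value of Sema3a went from -0.93 to -0.17.

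Ptn (Entrez 19242), pleiotrophin, was the highest of the growth-factor-like members. It stood at 30.8, 10.4 and 9.68 CPM with EGFP, 10.9, 8.05 and 13.2 CPM with hM3Dq, 9.29, 44.8 and 49.7 CPM with rM3Ds and 20.5, 10.3 and 8.97 CPM with hM4Di. The rM3Ds log2 fold change against hM4Di was 1.38 ± 0.62 (SE; edgeR, adjusted p = 0.497). It turned to -0.52 without the 3 libraries that stood apart, where rM3Ds has 1 library left. Ndp, the Norrin ligand of frizzled-4, stood at 0.237 to 1.60 CPM.

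**Figure D4:**
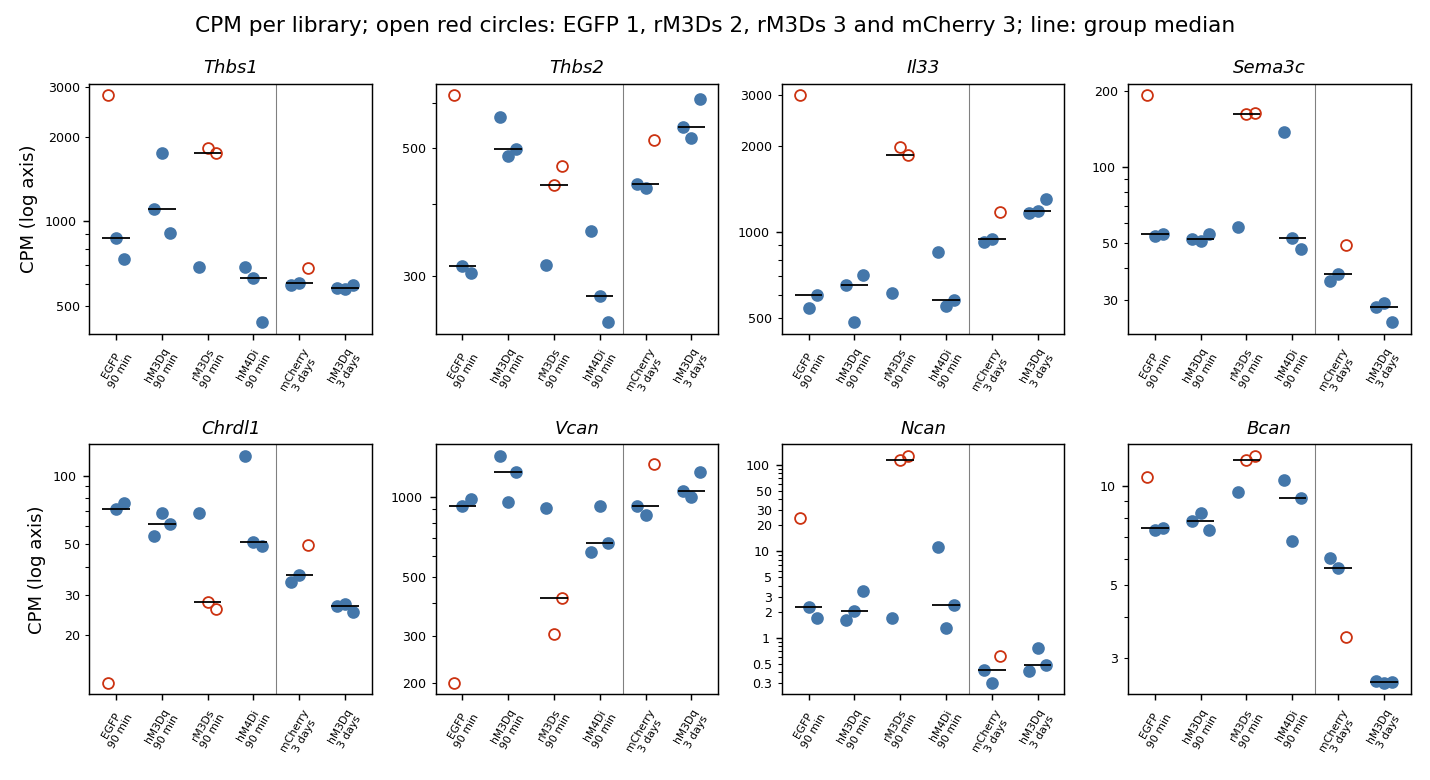
CPM of Thbs1, Thbs2, Il33, Sema3c, Chrdl1, Vcan, Ncan and Bcan in each library on a log axis, with one circle per library, a line at the median of each group of 3 and open red circles for EGFP replicate 1, rM3Ds replicates 2 and 3 and mCherry replicate 3. At 90 min the open circles lie away from the filled ones of their group for Il33, Sema3c, Vcan and Ncan, and Bcan is lower in all 3 hM3Dq libraries at 3 days than with mCherry.

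At 3 days the 2 smallest p-values among the members for hM3Dq against mCherry were those of Bcan and Sema3c, both with lower values in hM3Dq. Bcan (Entrez 12032), brevican, stood at 2.56, 2.52 and 2.55 CPM with hM3Dq and 6.05, 5.64 and 3.48 CPM with mCherry. All 3 hM3Dq libraries lay below all mCherry libraries, and the log2 fold change was -0.99 ± 0.23 (SE; 95% interval -1.52 to -0.45; edgeR, adjusted p = 0.228). At 90 min Bcan stood at 7.87, 8.29 and 7.38 CPM with hM3Dq and 10.7, 7.38 and 7.49 CPM with EGFP, which overlapped, at 9.58, 12.03 and 12.4 CPM with rM3Ds and at 10.4, 6.84 and 9.23 CPM with hM4Di.

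Sema3c stood at 28.1, 29.1 and 24.4 CPM with hM3Dq and 35.4, 37.9 and 49.3 CPM with mCherry at 3 days, without overlap. Its log2 fold change was -0.59 ± 0.15 (SE; edgeR, adjusted p = 0.251). Chrdl1, at 26.9, 27.5 and 25.3 against 34.1, 36.6 and 49.8 CPM, Gpc6, at 61.5, 62.4 and 68.2 against 78.8, 73.6 and 89.4 CPM, and Cadm1, at 169, 161 and 159.9 against 189, 184 and 231 CPM, were also lower without overlap. Their log2 fold changes were -0.60 ± 0.15, -0.33 ± 0.10 and -0.30 ± 0.11 (SE), with adjusted p = 0.252, 0.298 and 0.344 by edgeR. Thbs2 stood higher without overlap, at 544, 522 and 609.9 against 433, 427 and 518 CPM and a log2 fold change of 0.28 ± 0.11 (adjusted p = 0.392).

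Other members, abundant or low, had the following values with hM3Dq and mCherry at 3 days. Sparc stood at 1609, 1583 and 1693 CPM with hM3Dq and 1404, 1540.5 and 1361 CPM with mCherry, higher without overlap, with a log2 fold change of 0.18 ± 0.09 (SE; edgeR, adjusted p = 0.437). Lrp1 stood at 3070.1, 2905 and 3487 and 3729, 3067 and 2802 CPM, Thbs1 at 582, 575 and 597 and 594, 603 and 687 CPM, and Slit2 at 777, 762 and 813 and 852, 799 and 1062 CPM, in the same order. The hM3Dq and mCherry libraries of these 3 overlapped, with log2 fold changes of -0.02 ± 0.13, -0.10 ± 0.09 and -0.21 ± 0.12. Il33 stood at 1164, 1187 and 1304 CPM with hM3Dq and 922, 942 and 1176 CPM with mCherry, where mCherry replicate 3 lay inside the hM3Dq range, and its log2 fold change was 0.27 ± 0.12 (adjusted p = 0.419). Vcan stood at 1054, 1002 and 1240.1 and 925, 854 and 1328 CPM and Pros1 at 134, 139 and 149.8 and 119.7, 123 and 157 CPM, and for Vcan mCherry replicate 3 was the highest of the 6 libraries. Gpc1, at 75.5, 71.5 and 79.0 and 76.9, 71.7 and 55.9 CPM, and Gpc4, at 88.5, 90.5 and 91.2 and 89.0, 86.8 and 104 CPM, overlapped as well. Gas6 stood at 15.8, 13.6 and 14.2 and 15.0, 14.5 and 12 CPM, which overlapped. Ptn stood at 14.7, 14.1 and 9.33 and 13.1, 13.4 and 14.5 CPM and Ncan, untested, at 0.410, 0.763 and 0.488 and 0.429, 0.300 and 0.617 CPM. For Sparcl1 the hM3Dq libraries, at 3.02, 3.17 and 1.46 CPM, lay below all mCherry libraries, at 3.91, 3.48 and 3.36 CPM, with a log2 fold change of -0.49 ± 0.28 (adjusted p = 0.484).

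In all, 6 of 28 members lay lower without overlap and 2 higher (Sparc and Thbs2), against 13.0% and 12.1% of the 12788 genes compared. The median log2 fold change of the members was -0.11 against -0.0070 over all genes. Without mCherry replicate 3, which stood apart, 9 of 28 members passed (32.1%), against 9.72% of 12929 genes (4.15% higher, 5.58% lower), with Bcan, Sema3c, Chrdl1, Gpc6 and Cadm1 lower and Thbs2, Il33, Vcan and Pros1 higher. In that fit Bcan stood at -1.20 ± 0.17 (adjusted p = 0.00107) and Thbs2 at 0.38 ± 0.07 (adjusted p = 0.00317). Only 2 mCherry libraries then remain, and the count for all genes moved from 0 to 1257.

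**Figure D5:**
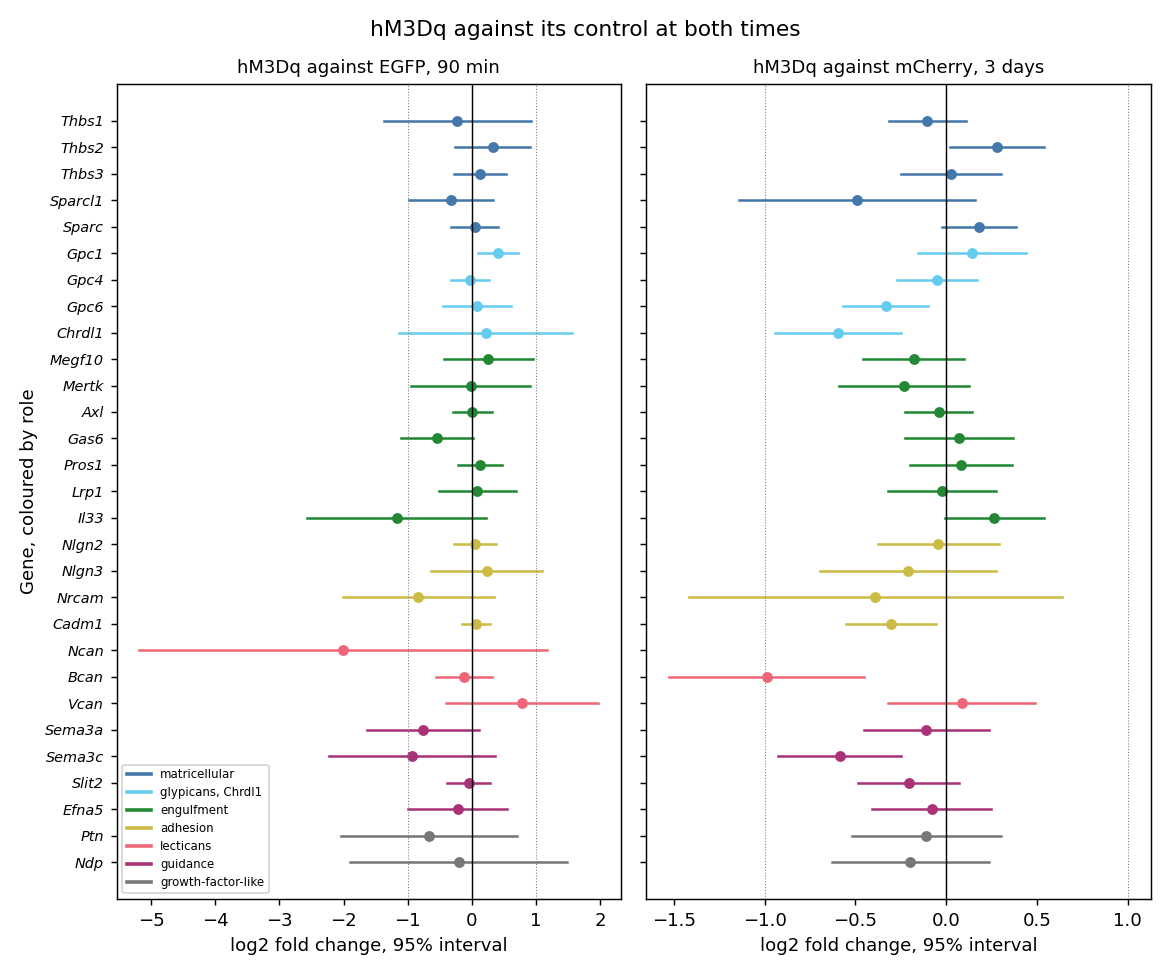
Log2 fold change with 95% interval for each member in hM3Dq against EGFP at 90 min (left) and against mCherry at 3 days (right), from edgeR, with dotted lines at a 2-fold difference. The panels have horizontal axes of different width, and no adjusted p was under 0.05 in any panel.

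The difference between the hM3Dq effect at 3 days and the effect at 90 min was tested directly, and 0.396% of 13391 genes and 0 of 29 members passed. Bcan had a difference of -0.86 ± 0.31 (SE; edgeR, adjusted p = 0.417), Cadm1 of -0.36 ± 0.14 (adjusted p = 0.441) and Gpc6 of -0.41 ± 0.17 (adjusted p = 0.472). These were the 3 members with an unadjusted p under 0.05, against 9.73% of genes. Control protein and time differ together here, and the 2 comparisons share no libraries.

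Side by side, with no test, the hM3Dq cultures held different levels at the 2 times. Gas6 had a median of 159 CPM at 90 min and 14.2 CPM at 3 days, and its controls stood at 232 ± 110.3 CPM with EGFP and 13.8 ± 1.61 CPM with mCherry (mean ± SD, n = 3). Bcan, Nrcam and Ncan had lower medians at 3 days (7.87 and 2.55 CPM, 4.33 and 1.03 CPM, 2.06 and 0.488 CPM). Il33, Megf10 and Efna5 had higher ones (651 and 1187 CPM, 237 and 379.8 CPM, 3.16 and 6.63 CPM). Ndp, with the largest rise, went from 0.484 to 2.44 CPM. Medians of the controls, EGFP and then mCherry, went the same way for these genes. They were 7.49 and 5.64 CPM for Bcan, 5.42 and 1.08 for Nrcam, and 2.29 and 0.429 for Ncan. For Il33 they were 603 and 942 CPM, for Megf10 219 and 388, for Efna5 3.78 and 6.96, and for Ndp 0.572 and 2.75. CPM was scaled separately in the tables of each time, so time, table and culture conditions cannot be told apart.

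Genes around the members were read from 4 lists chosen with earlier results of these data known: 30 receptors of the secreted members, 42 other members of the same families, 23 genes of the engulfment machinery and 36 other astrocyte synapse factors. For hM3Dq against EGFP, 29, 33, 23 and 30 of these were tested, and 0 rose or fell where 0.788% of all genes passed. The family list had a median log2 fold change of -0.25 against -0.0034 over all genes, and the other 3 lists lay between -0.03 and 0.07. Rtn4, which makes the growth inhibitor Nogo, stood at 671, 613 and 655 CPM with hM3Dq and 519, 511 and 501 CPM with EGFP, without overlap. Its log2 fold change was 0.34 ± 0.08 (SE; edgeR, adjusted p = 0.113). By DESeq2 it was 0.34 ± 0.06 and passed (adjusted p = 1.0e-06), where 1.16% of 19997 genes did. Adamts15, a protease of lecticans, stood at 0.248, 0.907 and 0.662 against 3.12, 1.09 and 1.33 CPM, with a log2 fold change of -1.60 ± 0.49 (adjusted p = 0.311). The scavenger receptor Cd36 stood at 14.3, 0.172 and 0.346 CPM with EGFP and 0.124, 0.181 and 0.102 CPM with hM3Dq, and Ptprz1, a receptor of Ptn, at 2.93, 0.172 and 0 and 0.124, 0.0605 and 0.0509 CPM. For both, only EGFP replicate 1 stood clear of the floor of 3 counts by a wide margin, so no fold is given. Efnb2, Hapln3, a link protein, Elmo2, an engulfment adaptor, and Stab1 had log2 fold changes of 0.45 ± 0.20, -1.16 ± 0.57, -0.26 ± 0.13 and 0.62 ± 0.48. Without EGFP replicate 1 the first 3 were 0.27, -0.22 and -0.13, and Adamts15 was -0.98.

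At 3 days 23, 28, 21 and 28 genes of these lists were tested and 0 rose or fell. The test passed 0 of all 12807 genes there (0.0%), so that count says nothing of the lists. Smoc2, a relative of Sparc, stood at 19.8, 17.3 and 22.9 CPM with hM3Dq and 11.5, 12.2 and 10.3 CPM with mCherry, without overlap and at a log2 fold change of 0.82 ± 0.14 (SE; edgeR, adjusted p = 0.2). Adamts4, a protease that cuts lecticans including brevican, stood at 9.43, 8.22 and 9.001 against 5.52, 4.80 and 5.16 CPM, with a log2 fold change of 0.78 ± 0.13 (adjusted p = 0.2). The complement protein C3 stood at 151, 146 and 209 against 107, 98.04 and 102 CPM, with a log2 fold change of 0.72 ± 0.14 (adjusted p = 0.227). Over the alternative fits, by edgeR or DESeq2, the lowest adjusted p was 0.00277 for C3 and 0.00118 for Smoc2, so both passed in some of them. Plxna3, a semaphorin receptor, Fzd4, the frizzled receptor of Norrin, and Gpc2 had log2 fold changes of -0.44 ± 0.11, -0.45 ± 0.18 and -0.68 ± 0.18. The engulfment genes Elmo1 and Ctsb had -0.33 ± 0.13 and 0.21 ± 0.09. Without mCherry replicate 3, where 9.72% of genes passed, Fzd4 was -0.25, and Smoc2, Adamts4, Plxna3 and Gpc2 passed (adjusted p = 0.00134, 0.00398, 0.0108 and 0.00754).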

How the data were processed

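Poly-A-enriched RNA of 18 samples was read from deposited tables of gene-level expected counts, which the authors made with fastp 0.23.4 and Salmon 1.8.0 on mm39, per the submitters' processing notes. Counts are estimates and were rounded, since 55.9% (90-min table) and 30.5% (3-day table) of the entries had a fraction. Of 22078 Entrez identifiers 21978 (99.55%) matched a symbol in the RefSeq table of GRCm38.p6. Lengths are merged exons of GENCODE M21 (GRCm38). Strand setting and the summing of transcripts to genes are not given in the sources used here.

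edgeR 4.0.16 (R 4.3.3) was run with TMM, filterByExpr and a robust quasi-likelihood fit, over 12 libraries together at 90 min (8 residual degrees of freedom), 6 libraries at 3 days (4), and 12 libraries for the change in effect. Benjamini-Hochberg adjustment covered all genes tested, with a threshold of 0.05. SE is the fold change over the square root of F. CPM is TMM-scaled, separately for each time. Members and lists were chosen with earlier results of these data known. Values in every library are given for the 2 members with the smallest p in each comparison against a control, the highest member of each role and the 4 with the widest range at 90 min among those with a mean of at least 1 CPM, plus Thbs2 and Il33. From each other list the called genes, or the 2 with the smallest p, are named. Some genes of these lists are not reported here and were left out of their counts and medians. Alternatives were RLE factors, no filter, DESeq2 1.42.0, a replicate block, fitting 2 groups, leaving out or adjusting for the libraries that stood apart, and leaving out each library. The fit was tested on simulated data. Same-numbered libraries of hM3Dq and EGFP deviated from their group means with correlations of 0.133, 0.162 and 0.123. The alternative with a block treated same-numbered libraries as paired.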

Additional observations from a re-analysis of the deposited data

How the results depend on the processing

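The block by replicate number changed no member call, and the calls over all genes became 66 for hM3Dq against EGFP, 4 for rM3Ds against EGFP, 53 for hM3Dq against rM3Ds, 61 for hM3Dq against hM4Di and 0 for rM3Ds against hM4Di (107, 2, 91, 109 and 2 without it). Whether the numbers pair the libraries is not settled, since differently numbered libraries were not correlated for comparison. Same-numbered libraries deviated with correlations of 0.373, 0.098 and 0.305 for hM4Di and EGFP, -0.764, -0.573 and -0.566 for rM3Ds and EGFP, -0.399, -0.092 and -0.411 for rM3Ds and hM4Di, -0.094, -0.081 and -0.201 for hM3Dq and rM3Ds, 0.232, -0.118 and 0.255 for hM3Dq and hM4Di, and 0.041, 0.022 and 0.035 at 3 days. DESeq2 called 231, 61, 31, 468, 390, 213, 140 and 199 genes for hM3Dq, rM3Ds and hM4Di against EGFP, hM3Dq against rM3Ds, hM3Dq against hM4Di, rM3Ds against hM4Di, the 3-day comparison and the difference between times. DESeq2 called 1 member. Fitting only 2 groups gave 0, 138 and 0 for rM3Ds against EGFP, hM3Dq against rM3Ds and rM3Ds against hM4Di. Without the 3 libraries that stood apart, the counts were 0 for rM3Ds against EGFP, 25 for hM3Dq against rM3Ds, 300 for hM3Dq against hM4Di, 0 for rM3Ds against hM4Di and 170 for the difference between times, with 1 member in hM3Dq against hM4Di. The fit for the difference holds no rM3Ds library, so its 170 is the count without EGFP replicate 1 alone. A term for the 3 libraries gave 206 for hM3Dq against EGFP, 383 for hM3Dq against hM4Di and 1 for rM3Ds against hM4Di. With it 1 member passed in hM3Dq against rM3Ds and 2 in hM3Dq against hM4Di. A term gave 98 for the difference, where it marked EGFP replicate 1 and mCherry replicate 3. No filter gave 1 at 3 days.

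Leaving out one library gave 50 to 103 genes for hM3Dq against EGFP, 2 to 115 for rM3Ds against EGFP, 28 to 590 for hM3Dq against rM3Ds, 38 to 106 for hM3Dq against hM4Di, 0 to 392 for rM3Ds against hM4Di, 0 to 1257 at 3 days and 28 to 170 for the difference. Members called ranged over 0 to 3 in hM3Dq against rM3Ds, 0 to 1 in rM3Ds against hM4Di and 0 to 9 at 3 days. Without rM3Ds replicate 1, Ncan, Gpc4 and Ptn passed at -5.65, -0.54 and -2.15 against hM3Dq, where 4.27% of genes passed. Of 586 alternative values for members, 544 kept direction and side of the threshold, 18 passed newly and 24 reversed; for other genes 174 of 182 did and 8 passed newly. Reversals without the 3 libraries were Il33 0.093, Ncan 0.26, Ptn 0.083 and Thbs1 0.64 (hM3Dq against EGFP), Gpc4 -0.020 and Ncan -0.22 (rM3Ds against EGFP), Gpc4 0.0066, Ncan 0.48, Nrcam 0.046 and Ptn 0.20 (hM3Dq against rM3Ds), and Ncan -1.54 and Ptn -0.52 (rM3Ds against hM4Di). Those that involve rM3Ds rest on the 1 rM3Ds library left. With the term the reversals were Thbs1 0.57, Ncan 0.92 and Ptn 0.22 (hM3Dq against EGFP), Nrcam 0.059 (hM3Dq against rM3Ds), and Ncan -0.41 and Ptn -0.25 (rM3Ds against hM4Di). Without EGFP replicate 1, Il33 was 0.10, Ncan 0.28, Ptn 0.093 and Thbs1 0.64. Leaving out one library moved Il33, Ncan and Ptn in hM3Dq against EGFP from -1.55 to 0.10, from -2.49 to 0.28 and from -0.95 to 0.093, and Vcan at 3 days from -0.038 to 0.31. The cause of these was not tested.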
